A study of Homo sapiens with 9 samples.

Results

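Read-through transcription joins a gene to the next gene on the same strand when RNA polymerase passes the poly(A) site of the upstream gene and the RNA is cleaved and polyadenylated at the downstream gene. Such an RNA starts at the upstream promoter and carries the 3′ end of the downstream gene, and read-throughs usually take a small part of the upstream promoter's output. Standard RNA-Seq fragments cannot assign both ends to one RNA, whereas TIF-Seq2 makes circles of the cDNA of whole RNAs that carry a cap and a poly(A) tail, so that one read pair reads both the first base and the cleavage site of a molecule. Described here are 5 read-through pairs, SF3A2-AMH, BSDC1-FAM229A, LINC01033-SNX18, UQCRQ-LEAP2 and PPP2CA-SKP1, whose 10 genes are among 17240 annotated genes with at least 1 molecule. The pairs were chosen by the measured counts of molecules that link them in these libraries, so the read-through counts and shares below are a description and carry no test of their existence.

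The study compared K562 cells, an established human erythroleukemia line that carries the BCR-ABL fusion, after 24 h with 1 μM imatinib, an inhibitor of the ABL tyrosine kinase, with K562 cells kept for 24 h in the DMSO vehicle. There were 2 TIF-Seq2 libraries of each condition, described as biological replicates, 4 in all. All values come from 1 cell line, so the samples show nothing of other leukaemia cells or of patients. The deposited tables held 3695520 and 5135829 molecules (read pairs without PCR copies) in DMSO replicates 1 and 2, and 4263670 and 2263121 in imatinib replicates 1 and 2. A molecule was used when fewer than 7 of the 10 genomic bases after its 3′ end were A, since a longer A stretch can prime the cDNA inside an RNA, and when its ends lay from 300 bp to 2 Mb apart, which kept between 88.4% and 90.7% of each library. As a check of the cell type, all 11 erythroid markers tested had molecules. Over all 11 their summed level was 5207 and 4384 counts per 1000000 molecules (CPM) in DMSO and 12101 and 12790 in imatinib.

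The genes were taken as annotated in Gencode v44 on hg38. SF3A2, a subunit of the SF3A complex of the U2 snRNP, lies at chr19:2236824-2248655 on the plus strand, and AMH, the anti-Müllerian hormone of the TGF-beta family, lies 653 bp further on at chr19:2249309-2252073. BSDC1 lies at chr1:32364633-32394731 on the minus strand, 354 bp before FAM229A at chr1:32361270-32364278, and the opposite-strand gene TSSK3 overlaps FAM229A. LINC01033, a long non-coding RNA gene, lies at chr5:54313564-54415238 on the plus strand. SNX18, a sorting nexin of the SNX9 family that shapes membranes in endocytosis, lies 102520 bp downstream at chr5:54517759-54546586. UQCRQ, a subunit of respiratory complex III, lies at chr5:132866630-132868847 on the plus strand, 4596 bp before LEAP2 at chr5:132873444-132875046, which encodes a secreted peptide that antagonizes the ghrelin receptor. PPP2CA, a catalytic subunit of protein phosphatase 2A, lies at chr5:134194035-134226073 on the minus strand. SKP1, the adaptor of SCF ubiquitin ligases, lies 17070 bp downstream at chr5:134148935-134176964, and Gencode v44 also annotates a read-through gene, ENSG00000272772, that spans the gap. The small heat-shock protein gene HSPB3 lies between LINC01033 and SNX18 on the same strand, had 3 molecules of its own and received 0 molecules from LINC01033. A count of 0 allows up to 3 molecules.

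A read-through molecule from the main upstream promoter has to pass the poly(A) site that the upstream gene uses most. It also has to be cut at one in the downstream gene. A few counted molecules started past the upstream site, from chr1:32364698 to chr1:32365032 in BSDC1 and at chr5:54408491 in LINC01033. The 30 bases up to the upstream and downstream sites are shown for the pairs, 5′ to 3′ on the gene's strand. They were read from hg38, and the capitals mark a poly(A) hexamer (AATAAA, or ATTAAA where there is no AATAAA) on that strand.
SF3A2, chr19:2248625-2248654: ctgccccccgctcATTAAAcagcctccccc
AMH, chr19:2252043-2252072: tcgccccAATAAAgaccagcaagcaaccgg
BSDC1, chr1:32365231-32365260: agtattttgtagctgggaaaagaaaaaagg
BSDC1, most used end with fewer than 7 A after it, chr1:32365112-32365141: gccgttaacagcATTAAAgtgattcacccg
FAM229A, chr1:32361271-32361300: tAATAAAgcacagcacaaactgttctttcc
LINC01033, chr5:54401874-54401903: tgaaaaaaaagtttgtttttttaagctgcc
SNX18, chr5:54545841-54545870: ttaaaAATAAActatcatgcccttcatgcc
UQCRQ, chr5:132867657-132867686: caaagacacAATAAActtcctatggtctgc
LEAP2, chr5:132874666-132874695: tctatggatactATTAAAtgtctcaaattg
PPP2CA, chr5:134197096-134197125: gtgtttttcatAATAAActtgtgaactaag
SKP1, chr5:134157474-134157503: aaactgaactgtgggttctctataagtggc

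Both kinds of hexamer occurred at upstream and downstream genes. AATAAA was found at UQCRQ, PPP2CA, AMH, FAM229A and SNX18, and ATTAAA at SF3A2, LEAP2 and the second BSDC1 site. Neither was found in the window of LINC01033, SKP1 or the most used BSDC1 site, the last of which is followed by 9 A in the next 10 bases. For comparison, over the most used ends of 7464 genes with at least 100 molecules, 64.4% had AATAAA in the same window, 16.5% had ATTAAA without it and 19.1% had neither. A hexamer in the window is a description of the sequence and not a measurement of its use. The ends lay in an annotated 3′ UTR, in exon 9 of SF3A2, exon 5 of AMH, exon 11 of BSDC1 (the second site), exon 2 of SNX18, exon 7 of PPP2CA, exon 6 of SKP1 and exon 3 of FAM229A, UQCRQ and LEAP2. That of LINC01033, which has no UTR, lay in exon 5 of a transcript other than its canonical one.

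Counts are given first, in the order DMSO 1, DMSO 2, imatinib 1 and imatinib 2. Molecules with both ends inside SF3A2 numbered 295, 566, 558 and 250, those that started in SF3A2 and ended in AMH 17, 29, 129 and 35, and those inside AMH 5, 7, 23 and 5. The splicing-factor gene was thus well covered. AMH, a hormone made by Sertoli and granulosa cells, had more molecules that started in SF3A2 than inside AMH in every library. For BSDC1 the counts inside the gene were 211, 273, 603 and 272, the read-throughs to FAM229A 6, 5, 104 and 32, and the molecules inside FAM229A 11, 22, 151 and 27. Here more molecules started inside the downstream gene than in BSDC1 in 3 of 4 libraries, imatinib replicate 2 being the exception. Those inside FAM229A had no common start, with 211 molecules at 181 positions, and the 40 inside AMH used 36 positions.

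LINC01033 had 838, 1186, 420 and 195 molecules inside the gene and 25, 41, 4 and 4 that reached SNX18. Inside SNX18 lay 8, 21, 8 and 4 molecules. In DMSO the SNX18 ends came mostly from the non-coding gene, while in imatinib the counts were 4 against 8 and 4 against 4. UQCRQ, the most abundant of the 10 genes, had 3963, 4974, 3789 and 2500 molecules inside, 22, 24, 6 and 4 that ended in LEAP2, and LEAP2 had 1, 0, 0 and 0 of its own. The only LEAP2 molecule that started inside the annotated gene was thus in DMSO replicate 1. PPP2CA had 1101, 1495, 787 and 472 molecules inside, 15, 11, 3 and 2 that ended in SKP1, and SKP1 had 1056, 1306, 1107 and 666 of its own. SKP1 was the only downstream gene whose own molecules outnumbered the read-throughs by a wide margin in all 4 libraries.

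The read-through share of the upstream promoter was defined as the read-throughs divided by the read-throughs plus the molecules inside the upstream gene, with 95% Wilson intervals that cover counting error only. Starts anywhere in the upstream gene were counted, also those away from its promoter. Pooled over the libraries, SF3A2 gave 11.2% of the molecules so counted to AMH (210 of 1879, interval 9.83 to 12.7%), and BSDC1 gave 9.76% to FAM229A (147 of 1506, 8.36 to 11.4%). LINC01033 gave 2.73% to SNX18 (74 of 2713, 2.18 to 3.41%), PPP2CA gave 0.798% to SKP1 (31 of 3886, 0.563 to 1.13%) and UQCRQ gave 0.366% to LEAP2 (56 of 15282, 0.282 to 0.476%). Without imatinib replicate 1, which held most of the read-throughs of the first and second pair, these were 6.80% for SF3A2-AMH and 5.38% for BSDC1-FAM229A. The pooled intervals of these pairs overlapped, and those of the other neighbours in this order did not. The order was another one in DMSO alone, where LINC01033-SNX18 (3.16%, 66 of 2090, interval 2.49 to 4.00%) stood above BSDC1-FAM229A (2.22%, 11 of 495, interval up to 3.93%) with overlapping intervals. With molecules of 7 or more A after their end kept, LINC01033-SNX18 (2.59%) also stood above BSDC1-FAM229A (2.43%). Over all molecules that start in SF3A2, the SF3A2-AMH share was 6.90%. The order of the shares was not the order of the read-through levels, since UQCRQ, with the lowest share, had 15226 molecules inside the gene and PPP2CA 3855.

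The share in each library is shown with its interval in the plot of shares by library. For SF3A2-AMH it was 5.45% and 4.87% in DMSO and 18.8% and 12.3% in imatinib. For BSDC1-FAM229A it was 2.76% and 1.80% in DMSO and 14.7% and 10.5% in imatinib. Both short-gap pairs were thus higher in the imatinib libraries, and the intervals of the DMSO and the imatinib libraries did not overlap. For LINC01033-SNX18 the share was 2.90% and 3.34% in DMSO and 0.943% and 2.01% in imatinib. For UQCRQ-LEAP2 it was 0.552% and 0.480% in DMSO and 0.158% and 0.160% in imatinib, and for PPP2CA-SKP1 1.34% and 0.730% against 0.380% and 0.422%. These 3 pairs of chromosome 5 were lower in the imatinib libraries, but the interval of at least 1 imatinib library overlapped an interval of DMSO in each. The imatinib shares of LINC01033-SNX18 and PPP2CA-SKP1 rest on 2 to 4 molecules per library.

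**Figure D1:**
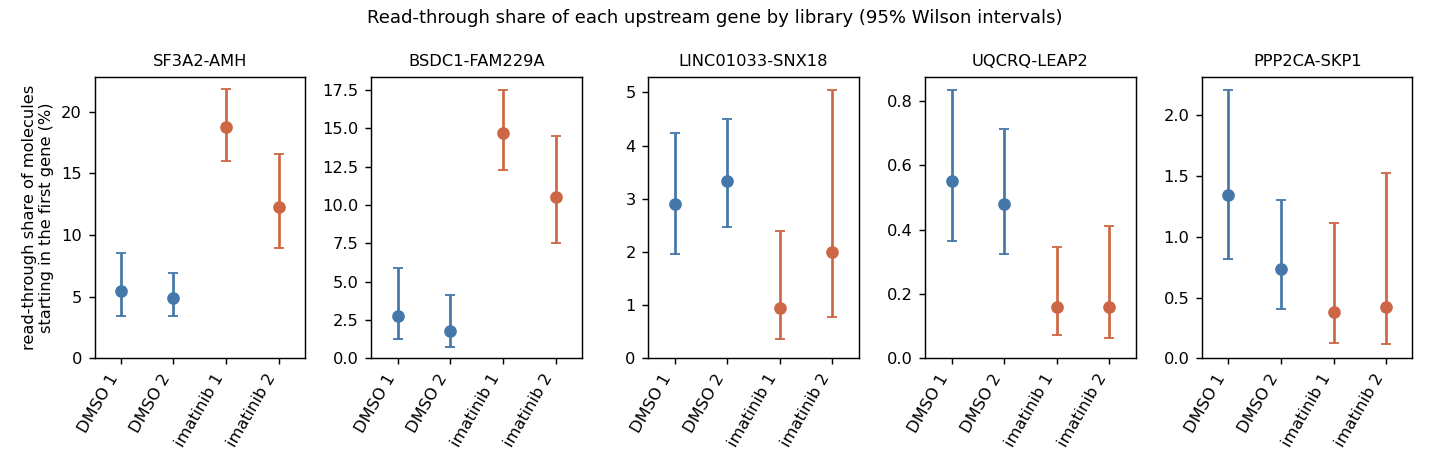
Read-through share of the molecules that start in the upstream gene (y axis, percent, from 0, a separate scale for each pair) in each of the 4 libraries (x axis), with bars for the 95% Wilson interval. SF3A2-AMH and BSDC1-FAM229A are higher in both imatinib libraries (12.3 to 18.8% and 10.5 to 14.7%) than in both DMSO libraries, and the other 3 pairs are lower. With 100 bp of slack at the gene bodies, which is not shown, the conditions overlapped for PPP2CA-SKP1.

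As means ± SD of 2 libraries, the share of SF3A2-AMH was 5.16 ± 0.406% in DMSO and 15.5 ± 4.59% in imatinib, and that of BSDC1-FAM229A was 2.28 ± 0.683% and 12.6 ± 2.96%. The shares of LINC01033-SNX18 were 3.12 ± 0.314% and 1.48 ± 0.754%, those of UQCRQ-LEAP2 0.516 ± 0.0508% and 0.159 ± 0.00116%, and those of PPP2CA-SKP1 1.04 ± 0.434% and 0.401 ± 0.0298%. The 2 conditions did not overlap in any of the 5 pairs, against 43.0% of the 228 neighbouring pairs with at least 10 read-through molecules. An exact two-sided permutation test of 2 against 2 libraries gave 0.333 for each pair, the smallest p that this design allows.

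The share was also tested between the conditions in one fit over those 228 pairs (edgeR's quasi-likelihood test, with the molecules starting in the upstream gene as offset and Benjamini-Hochberg adjustment), in which 0.439% of the pairs were called at an adjusted p under 0.05. The one called pair was HBG2-HBG1, a pair of near-identical globin genes whose reads may be hard to tell apart, which is named here after its value was seen (log2 ratio 2.03, adjusted p = 0.0470) and was not called without any one of the libraries (adjusted p from 0.185 to 0.441). None of the 5 pairs passed. The log2 ratio of the share in imatinib over DMSO was 1.64 for SF3A2-AMH (SE 0.308, unadjusted p = 0.0204, adjusted p = 0.388) and 2.52 for BSDC1-FAM229A (SE 0.365, unadjusted p = 0.0111, adjusted p = 0.338). It was −1.67 for UQCRQ-LEAP2 (SE 0.126, unadjusted p = 0.00225, adjusted p = 0.128). That SE understates the counting error of 46 read-throughs in DMSO and 10 in imatinib. The Wilson intervals of these pooled shares were 0.384 to 0.682% in DMSO and 0.0863 to 0.292% in imatinib. LINC01033-SNX18 had −1.26 (SE 0.377, adjusted p = 0.536; −0.64 without imatinib replicate 1) and PPP2CA-SKP1 −1.32 (SE 0.549, adjusted p = 0.590). At an unadjusted p under 0.05, 16 of the 228 pairs or 7.02% passed, among them 3 of the 5. With DESeq2 in place of edgeR, 3 pairs were called, BSDC1-FAM229A among them (log2 ratio 2.50, adjusted p = 0.0399), the others being HBG2-HBG1 and HBE1-HBG1.

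Levels were compared in CPM after TMM scaling, as differences between the conditions over 10000 features, which were 9927 genes and 73 read-throughs of neighbouring genes. Of these features 14.5% were called at an adjusted p under 0.05, 8.75% as higher in imatinib and 5.74% as lower, and the median log2 fold change over all features was 0.02. Of the read-through features alone 28.8% were called, 17.8% as higher and the other 8 of 73 as lower. A molecule is counted once whatever its length, so levels were not divided by length. Whether the longer cDNA of a read-through was recovered less often than that of its upstream gene was not tested. Among the 10 genes 7 were tested and among the 5 read-throughs 4, since AMH, SNX18, LEAP2 and the PPP2CA-SKP1 read-through had too few molecules. BSDC1, FAM229A and LINC01033 were called among the genes. The read-throughs BSDC1-FAM229A, LINC01033-SNX18 and UQCRQ-LEAP2 reached the limit of 3.20 CPM in the libraries of only 1 condition, the one in which they were higher, so their passing of the filter depended on the difference and their calls are not counted together. For these the value without the filter, from a fit over 19014 features, is given as well. In bulk RNA, a change in the share of cells that express a gene and a change in RNA per cell cannot be told apart.

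**Figure D2:**
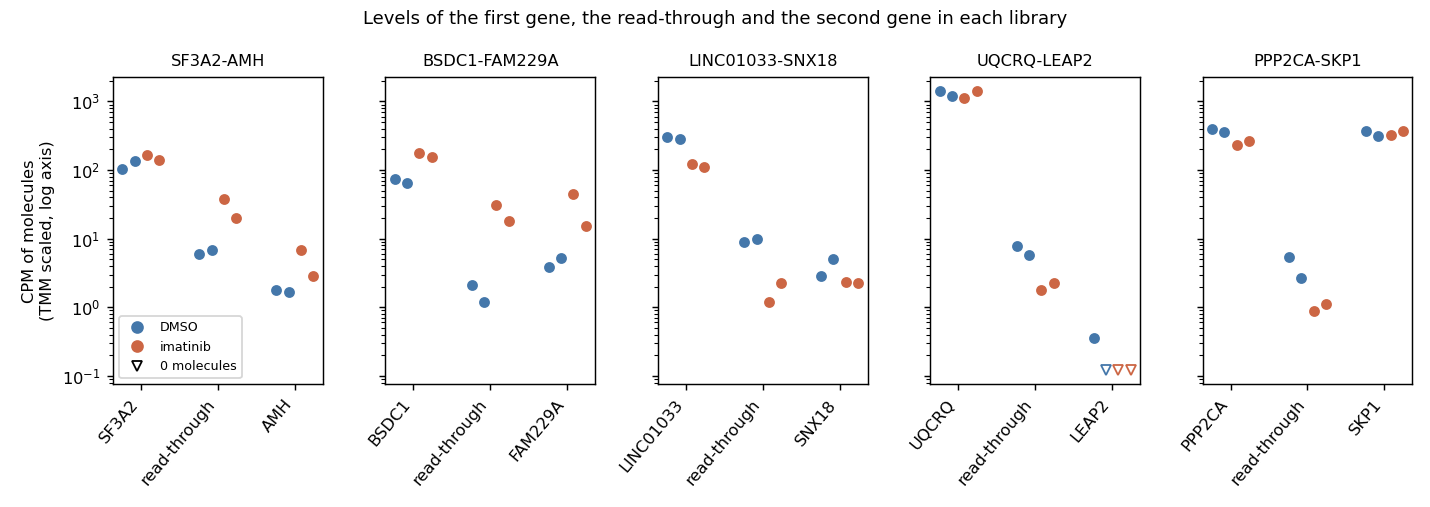
Level of the upstream gene, the read-through and the downstream gene of each pair in CPM (y axis, log scale, TMM scaled), with 1 point for each library, blue for DMSO and red for imatinib; open triangles are libraries with 0 molecules. The read-throughs of SF3A2-AMH and BSDC1-FAM229A stand higher in imatinib than in DMSO, while those of LINC01033-SNX18, UQCRQ-LEAP2 and PPP2CA-SKP1 stand lower. Molecules are counted in the annotated gene bodies, without slack.

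The SF3A2-AMH read-through had a level of 6.06 and 6.93 CPM in DMSO and 38.2 and 19.8 in imatinib, and rose 4.50-fold (log2 fold change 2.17, SE 0.417, adjusted p = 0.00860). Both imatinib libraries lay above both DMSO libraries, although they differed from each other by more than the DMSO libraries did. SF3A2 itself had 105 and 135 CPM in DMSO and 165 and 141 in imatinib (log2 fold change 0.35, SE 0.283, adjusted p = 0.444), and did not pass the test. AMH molecules that started inside AMH had a level of 1.78 and 1.67 in DMSO and 6.81 and 2.82 in imatinib, too few to be tested. The call on the SF3A2-AMH read-through was kept in all 9 alternative fits, whose adjusted p ranged from 2.43e-05 to 0.0319, with a log2 fold change of 1.59 without imatinib replicate 1.

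The BSDC1-FAM229A read-through had a level of 2.14 and 1.19 CPM in DMSO and 30.8 and 18.1 in imatinib. It rose 15.2-fold (log2 fold change 3.93, SE 0.502, adjusted p = 0.00180), and without the filter on low counts the log2 fold change was 3.83 (adjusted p = 1.64e-11). BSDC1 rose too, but 2.37-fold, from 75.2 and 65.2 to 178 and 154 (log2 fold change 1.24, SE 0.284, adjusted p = 0.0175). FAM229A molecules that started inside FAM229A rose from 3.92 and 5.26 to 44.7 and 15.3, with a log2 fold change of 2.72 (SE 0.532, adjusted p = 0.0105). The libraries of the 2 conditions did not overlap for any of these 3 features. The call on BSDC1 was lost without DMSO replicate 1 (adjusted p = 0.126) or DMSO replicate 2 (adjusted p = 0.242), whereas those on FAM229A and on the read-through were kept in all 9 alternative fits. The log2 fold change of FAM229A was 1.70 without imatinib replicate 1 and 3.22 without imatinib replicate 2.

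LINC01033 fell from 299 and 283 CPM in DMSO to 124 and 110 in imatinib (log2 fold change −1.31, SE 0.266, adjusted p = 0.0107). Its read-through to SNX18 fell from 8.91 and 9.79 to 1.18 and 2.26, with a log2 fold change of −2.53 (SE 0.524, adjusted p = 0.0115), or −2.63 without the filter (adjusted p = 0.000415). SNX18 molecules that started inside SNX18 had a level of 2.85 and 5.02 in DMSO and 2.37 and 2.26 in imatinib and were not tested. The call on LINC01033 was lost without DMSO replicate 1 (adjusted p = 0.0761) or DMSO replicate 2 (adjusted p = 0.0592), and that on the read-through without DMSO replicate 2 (adjusted p = 0.0749) and with DESeq2 (adjusted p = 0.0519).

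UQCRQ had 1413 and 1188 CPM in DMSO and 1121 and 1412 in imatinib, so that the conditions overlapped (log2 fold change −0.04, SE 0.253, adjusted p = 0.939). The UQCRQ-LEAP2 read-through fell from 7.84 and 5.73 to 1.78 and 2.26 (log2 fold change −1.75, SE 0.510, adjusted p = 0.0449) and had a log2 fold change of −1.85 without the filter (adjusted p = 0.0287). That call was lost without DMSO replicate 1 (adjusted p = 0.346), DMSO replicate 2 (0.192) or imatinib replicate 1 (0.157), and with DESeq2 (0.261). PPP2CA had 392 and 357 CPM in DMSO and 233 and 267 in imatinib (log2 fold change −0.59, SE 0.256, adjusted p = 0.154), lower in both imatinib libraries but not called. SKP1 had 376 and 312 in DMSO and 328 and 376 in imatinib (log2 fold change 0.03, SE 0.259, adjusted p = 0.952). That level leaves out 4942 molecules, over the libraries, that ended in SKP1 but started within 100 bp upstream of its annotated start. A level of SKP1 with these molecules was not fitted. The PPP2CA-SKP1 read-through, at 5.35 and 2.63 in DMSO and 0.888 and 1.13 in imatinib, was below the filter on low counts, and without that filter its log2 fold change was −2.03 (adjusted p = 0.0790). With 100 bp of slack at the gene bodies, its molecules numbered 23 and 19 in DMSO and 5 and 9 in imatinib. Its level was not fitted with the slack.

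Seen from the downstream gene, the pairs differed in how much of its 3′ ends the upstream promoter supplied. Of all molecules that ended in AMH, 72.4% started in SF3A2, another 12.1% within 45 bp upstream of its annotated start, and 13.8% inside AMH. Of those that ended in LEAP2, 93.3% started in UQCRQ and 5.0% within 28 bp upstream of it. SNX18 received 60.7% of its ends from LINC01033 and FAM229A 40.1% from BSDC1. SKP1 received 0.337% from PPP2CA, 54.4% from between the genes and 45.0% from inside SKP1. Of the 5004 molecules from between the genes 98.8% started within 100 bp of the annotated SKP1 start, the most used of these starts being 13 bp upstream of it.

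**Figure D3:**
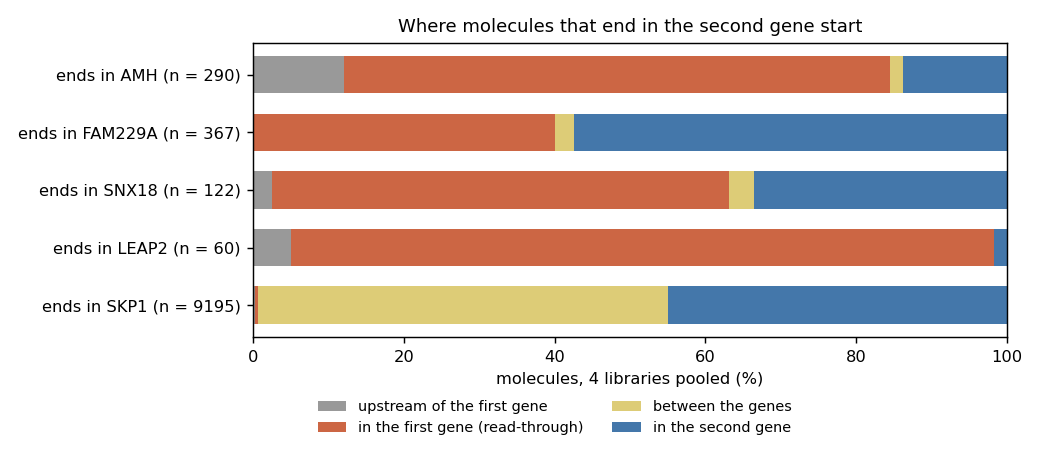
Where the molecules that end in each downstream gene start (x axis, percent of molecules, 4 libraries pooled, number of molecules in the row label). The upstream gene supplies 93.3% of the LEAP2 ends, 72.4% of the AMH ends, 60.7% of the SNX18 ends, 40.1% of the FAM229A ends and 0.337% of the SKP1 ends.

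Counted against molecules inside the downstream gene only, the share of AMH ends that came from SF3A2 was 77.3% (17 of 22) and 80.6% (29 of 36) in DMSO and 84.9% (129 of 152) and 87.5% (35 of 40) in imatinib. For FAM229A it was 35.3% (6 of 17) and 18.5% (5 of 27) in DMSO and 40.8% (104 of 255) and 54.2% (32 of 59) in imatinib. For SNX18 it was 75.8% (25 of 33) and 66.1% (41 of 62) in DMSO and 33.3% (4 of 12) and 50.0% (4 of 8) in imatinib. The intervals of each of these libraries are wide, reaching from 21.5 to 78.5% for the last. For LEAP2 the share was 95.7% (22 of 23) in DMSO replicate 1, and in the other libraries all 24, 6 and 4 molecules came from UQCRQ. For SKP1 it was between 0.270% and 1.40%.

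The ends of the read-through molecules were compared with those of the parent genes. The pairs were chosen by molecules of these same libraries, so this comparison is a description. Of the SF3A2-AMH read-throughs 97.6% started within 50 bp of the most used SF3A2 start (chr19:2236845, in the 5′ UTR of exon 1), against 94.0% of the molecules inside SF3A2. For BSDC1 the corresponding values were 91.2% and 91.5%, and for LINC01033 86.5% and 80.3%. All 56 UQCRQ-LEAP2 and all 31 PPP2CA-SKP1 read-throughs started within 50 bp of the most used start of the upstream gene, against 99.0% and 90.5% of the molecules inside UQCRQ and PPP2CA. In each of the pairs most read-through molecules thus started within 50 bp of the most used start of the upstream gene.

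At the 3′ side, all 210 SF3A2-AMH read-throughs ended within 50 bp of the most used AMH end, as did 98.0% for FAM229A, 96.4% for LEAP2, 80.6% for SKP1 and 70.3% for SNX18. SNX18 read-throughs used 18 end positions from chr5:54543509 to chr5:54546585, more spread than those of the other pairs. Molecules that started inside AMH, FAM229A and SNX18 had no common start, since 40 AMH molecules used 36 positions, 211 FAM229A molecules 181 and 41 SNX18 molecules 38. SKP1 differed here, as 36.8% of its 4135 molecules started at a single base.

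The molecules linking a pair were many combinations of start and end, many of them only a few bases apart. Whether some were remaining PCR copies was not tested. The 210 SF3A2-AMH molecules were 70 combinations, at most 26 molecules in one, and spanned a median of 15.2 kb of genome. The 147 BSDC1-FAM229A molecules were 47 combinations with a median span of 33.2 kb. The 74 LINC01033-SNX18 molecules were 42 combinations with a median span of 232 kb, the 31 PPP2CA-SKP1 molecules 19 combinations with 68.6 kb and the 56 UQCRQ-LEAP2 molecules 27 combinations with 8.05 kb.

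Circularization can also join the ends of separate cDNAs, so molecules with distant ends were counted beside the read-throughs. Of the molecules starting in SF3A2, 10 ended over 2 Mb away, at 9 positions, against 210 in AMH. For BSDC1 the numbers were 7 against 147, for LINC01033 11 against 74, for UQCRQ 44 against 56 and for PPP2CA 19 against 31. The 44 distant ends of UQCRQ were at 44 positions, while 46 of its 56 ends in LEAP2 were at one base. These positions cannot tell joined cDNAs from read-throughs, since a joined LEAP2 cDNA could end at that base too. The part of joined cDNAs among the read-throughs was not tested. Within 2 Mb upstream, 0 molecules that ended in any of the 5 downstream genes started more than 100 bp before the upstream gene, and from over 2 Mb away 9 molecules ended in SKP1 and 0 in the other downstream genes.

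Between the genes the upstream RNA ended at few other places. Another 259, 385, 352 and 158 molecules from SF3A2 ended within 100 bp past its annotated end, mainly at chr19:2248657 and chr19:2248678, and 0 in the rest of the gap. LINC01033 had 115 molecules that ended in the gap to SNX18, 21 of them within 100 bp of its end. BSDC1 had 0 molecules ending in the gap, UQCRQ 2 and PPP2CA 31. LINC01033 was also the only member with long-read models, 3 of them with 3, 4 and 5 exons, all from chr5:54313658 to chr5:54401903. Both ends of these models were joined within 100 bp by 330, 438, 163 and 75 TIF-Seq2 molecules. The long reads came from PCR products of chosen targets, and these models share both ends, so they carry no information on RNA that reaches SNX18.

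Where a gene body ends and which 3′ ends count as internal priming changed the shares of SF3A2 and BSDC1. With 100 bp of slack at the gene bodies, the SF3A2-AMH share was 3.26% and 2.96% in DMSO and 12.2% and 7.90% in imatinib, and 7.05% pooled. With the molecules that have 7 or more A after their end kept, BSDC1 had 690, 1170, 3253 and 793 molecules inside, and the BSDC1-FAM229A share was 0.862% and 0.426% in DMSO and 3.10% and 3.88% in imatinib, and 2.43% pooled. The order of the conditions was the same in both cases. With 100 bp of slack the PPP2CA-SKP1 share was 1.44% and 0.907% in DMSO and 0.452% and 1.31% in imatinib, so that the conditions overlapped.

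Of 38194 neighbouring same-strand pairs, 521 were left out because both genes lay inside another gene. The read-through shares were set beside those of the remaining pairs with at least 100 molecules starting in the upstream gene, of which there were 7526. Of these pairs 84.3% had no read-through molecule and 3.07% a share of at least 1%. By the share pooled over both conditions, 37 pairs were higher than SF3A2-AMH and 41 higher than BSDC1-FAM229A. For LINC01033-SNX18, which are not direct neighbours, 112 pairs were higher, for PPP2CA-SKP1 287 and for UQCRQ-LEAP2 481. In DMSO alone, where 5994 pairs had enough molecules, 55 pairs were higher than SF3A2-AMH, 72 than LINC01033-SNX18 and 87 than BSDC1-FAM229A, and in imatinib alone, of 5426 pairs, 16, 116 and 20 were. With 7 or more A kept, 141 of 8067 pairs were higher than BSDC1-FAM229A. The places of these pairs thus differed between the conditions, and that of BSDC1-FAM229A also with the A filter. The members had been chosen for their read-through, so these places are a description. Whether the pairs left out had higher shares was not tested, here or in the comparison by gap.

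**Figure D4:**
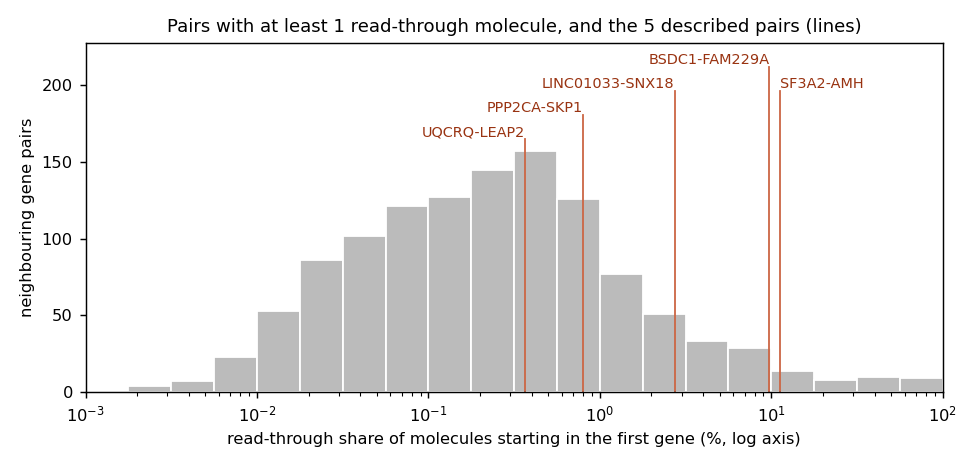
Number of neighbouring gene pairs (y axis) by read-through share of the upstream gene (x axis, percent, log scale), for pairs with at least 1 read-through molecule and at least 100 molecules starting in the upstream gene, and lines for the 5 pairs described. SF3A2-AMH (11.2%) and BSDC1-FAM229A (9.76%) lie in the upper tail, and UQCRQ-LEAP2 (0.366%) lies near the highest bar.

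The share of neighbouring pairs with read-through was related to the distance between the genes. Of 405 pairs with a gap under 1 kb, 39.3% had at least 1 read-through molecule and 15.8% a share of at least 1%. For 1945 pairs with a gap of 1 to 10 kb these were 23.7% and 4.88%, for 3787 pairs of 10 to 100 kb 13.2% and 1.82%, and for 1389 pairs over 100 kb 4.54% and 0.216%. Against pairs of their own gap class, and by the shares pooled over both conditions, 12 of 404 others had a higher share than SF3A2-AMH, 14 of 404 than BSDC1-FAM229A, 199 of 1944 than UQCRQ-LEAP2, 97 of 3786 than PPP2CA-SKP1 and 1 of 1389 than LINC01033-SNX18. LINC01033-SNX18 thus had the fewest higher pairs in its gap class, although another gene lies between its members.

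The neighbouring pair with the nearest pooled share was C19orf25-ENSG00000267317 for SF3A2-AMH, with 60 of 539 molecules or 11.1%. For BSDC1-FAM229A it was ENSG00000287453-LRRC7, with 10 of 106 or 9.43%, and for LINC01033-SNX18 it was DLGAP1-AS1-DLGAP1-AS2, with 14 of 504 or 2.78%. For UQCRQ-LEAP2 it was ENSG00000265257-ENSG00000273284, with 4 of 1093 or 0.366%, and for PPP2CA-SKP1 it was CCL26-HIP1, with 1 of 125 or 0.80%. The likeness is the difference of the pooled shares on a log scale over the 4 libraries.

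The genes of the complexes and pathways of the members mostly did not pass the test. The lists include the members themselves, here SF3A2, SKP1, PPP2CA and UQCRQ, none of them called. Of 14 genes of the U2 snRNP, which are subunits of SF3A and SF3B and others, all were tested and 0 were called by edgeR. At an unadjusted p under 0.05 there were 4, and DESeq2 called 1, DDX46. The list median of the log2 fold change was −0.42 against 0.02 over all genes tested. Of 15 tested genes of SCF ubiquitin ligases, in which SKP1 holds the substrate-binding F-box protein, 0 were called by edgeR or DESeq2 (1 at an unadjusted p under 0.05, median −0.13). Of 19 tested subunits and regulators of protein phosphatase 2A, only IGBP1, which binds the free catalytic subunit, was called, and it rose (log2 fold change 0.98, SE 0.276, adjusted p = 0.0398), with a list median of −0.13. Of 14 genes of respiratory complex III and its assembly, only UQCRFS1, the Rieske iron-sulfur subunit, was called, and it fell (log2 fold change −0.97, SE 0.271, adjusted p = 0.0395), with a list median of 0.02. These shares are below the 14.5% of all features. The calls on IGBP1 and UQCRFS1 were lost without DMSO replicate 1 (adjusted p = 0.359 and 0.318), DMSO replicate 2 (0.238 and 0.145) or imatinib replicate 1 (0.0612 and 0.0628).

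Of 8 tested SNX9 family and endocytosis genes AP2A1, a subunit of the AP-2 clathrin adaptor, was called and rose (log2 fold change 1.21, SE 0.316, adjusted p = 0.0295). Of 14 AMH and TGF-beta family signalling genes 6 could be tested, of which TGFBR1, the type I TGF-beta receptor, fell (log2 fold change −1.45, SE 0.359, adjusted p = 0.0243), and BMP4, BMPR1B, INHBA and SMAD1 had no molecule. Of 5 genes around LEAP2, GHRL, GHSR and MBOAT4 had no molecule. HAMP, which encodes the iron hormone hepcidin, was the only one tested, on 3, 7, 15 and 12 molecules, and reached the limit of the filter in the imatinib libraries alone. Its log2 fold change was 1.90 (SE 0.543, adjusted p = 0.0421), and without the filter it was 1.81 and not called (adjusted p = 0.0575). AP2A1 lost its call without DMSO replicate 1 (adjusted p = 0.179) or DMSO replicate 2 (0.297), TGFBR1 without DMSO replicate 2 (0.179) or imatinib replicate 1 (0.0520), and HAMP without any one of the libraries (0.0537 to 0.319). The 1 of 8 and the 1 of 6 genes called are close to the 14.5% of all features. Of the 11 erythroid markers 7 rose, against 8.75% of all features, 0 fell and the median log2 fold change was 1.37.

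AMH and LEAP2 are known from other tissues, so markers of these were counted. Of 7 Sertoli and granulosa cell genes, AMH among them, FSHR and SOX9 had no molecule, and the summed level was 10.7 and 11.9 CPM in DMSO and 22.2 and 19.2 in imatinib. Of 7 hepatocyte genes APOA1, SERPINA1 and TTR had no molecule, and the summed level was 2.14 and 1.91 in DMSO and 5.33 and 7.91 in imatinib, HAMP included. Of 7 lymphoid and monocyte genes CD14 and CD3E had no molecule, and the summed level was 145 and 187 in DMSO and 66.6 and 140 in imatinib. The part of such cells in the values of the members was not tested.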

How the data were processed

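The deposited values are raw counts of read pairs (molecules), given in a separate table for every TIF-Seq2 library by start and end base. The authors trimmed reads with cutadapt 1.16, aligned both ends separately with STAR 2.5.3a to hg38, dropped pairs that were not unique or spanned chromosomes, and used the UMIs to discard PCR copies. The long-read models hold coordinates only. Samples were grouped by their titles. The 3′T-fill samples were not used here.

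A molecule was assigned to a gene when both ends lay in its Gencode v44 body on its strand, and to a read-through when it started in the first gene and ended in the second. Read-throughs were counted for 37673 neighbouring same-strand pairs, after 521 of 38194 were left out because both genes lay inside another gene. Levels were tested with edgeR 4.0.16 (robust quasi-likelihood fit, TMM factors, filterByExpr). Shares were tested with the same fit, with the offset in place of TMM factors. In place of filterByExpr, pairs needed at least 10 read-through molecules and starts in every library. DESeq2 1.42.0 was an alternative for both, and adjustment was by Benjamini-Hochberg over all features or all pairs tested. The SE of a log2 fold change or log2 ratio was derived from its F statistic, and at low counts it can be smaller than the counting error. The replicates differed by a chi-square of 8.52 (DMSO) and 13.8 (imatinib) per degree of freedom, so none was a copy. On simulated counts, the level test recovered 84.0% of 200 features changed 4-fold among 10000, and the share test 53.3% of 45 among 228.

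The members and the gene lists were chosen with earlier results of these data known. Named are the members, genes between them, up to 4 called genes of each list and the pair nearest in share. Alternatives kept molecules with 7 or more A, allowed 100 bp of slack, changed the distance limit, the ends counted or the denominator, left out each library, used the replicate number as a block, RLE factors, no filter on low counts or a minimum of 4 molecules.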

Additional observations from a re-analysis of the deposited data

How the results depend on the processing

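The read-throughs of the chromosome 5 pairs rest on 2 to 6 molecules in each imatinib library, and each condition has 2 libraries. The pooled SF3A2-AMH share of the upstream gene was 11.2% as reported, 7.05% with 100 bp of slack at the gene bodies, 6.90% over all molecules that start in SF3A2 and 6.95% with the slack and with 7 or more A kept, an alternative chosen after seeing the data. The slack and the wider denominator add molecules that end within 100 bp past the annotated SF3A2 end. The BSDC1-FAM229A share was 9.76% as reported, 2.43% with 7 or more A kept and 2.46% with the slack as well, since the A filter removes most BSDC1 molecules. Without one library the shares of the upstream gene ranged from 6.80 to 14.1% for SF3A2-AMH, from 5.38 to 11.6% for BSDC1-FAM229A, from 2.22 to 3.06% for LINC01033-SNX18, from 0.301 to 0.435% for UQCRQ-LEAP2 and from 0.578 to 0.904% for PPP2CA-SKP1. The lowest values for SF3A2-AMH and BSDC1-FAM229A were those without imatinib replicate 1. The other alternatives moved these shares by less than the spread between replicates.

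Over all molecules that end in the downstream gene, the share from upstream was 72.4% for AMH, 93.3% for LEAP2 and 0.337% for SKP1, against 84.0%, 98.2% and 0.744% over molecules that start in either gene. The SKP1 value is lower because 5004 molecules that start before the annotated SKP1 body enter the denominator.

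The gene-level fit called 1449 features as reported, 725 with a replicate block, and between 632 and 2619 without one library, the extremes being those without DMSO replicate 2 (632) and without imatinib replicate 2 (2619). Without DMSO replicate 1 it called 836. DESeq2 called 546 as higher and 534 as lower, against 875 and 574. The share fit called 1 pair as reported, 0 with a replicate block, 0 with 7 or more A kept, 3 with DESeq2 and 0 without any one library (10 to 24 pairs at an unadjusted p under 0.05), and 14 and 20 pairs had an unadjusted p under 0.05 with the block and with 7 or more A kept.

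The replicate numbers of the 2 conditions are only numbers, as no label ties them to a shared culture or day, and deviations of libraries with the same number correlated at −0.28. Under the block the log2 fold changes of BSDC1 (1.24, adjusted p = 0.0743), LINC01033 (−1.31, adjusted p = 0.0613) and the UQCRQ-LEAP2 read-through (−1.77, adjusted p = 0.0973) no longer passed, nor did those of IGBP1, UQCRFS1, AP2A1, TGFBR1 and HAMP or the share ratio of HBG2-HBG1, while the calls on FAM229A and on the read-throughs of SF3A2-AMH, BSDC1-FAM229A and LINC01033-SNX18 passed. Of the erythroid markers 5 rose under the block, against 7. HAMP also missed the threshold without a filter on low counts, with 7 or more A kept and with DESeq2, AP2A1 with DESeq2, and HBG2-HBG1 with 7 or more A kept. The sign turned for UQCRQ, which was not called, between −0.24 and 0.12 without one library. It also turned for SKP1, not called, which had −0.063 without a filter on low counts, −0.027 with DESeq2 and from −0.12 to 0.15 without one library.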

Other observations

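A few molecules that started in an upstream gene ended beyond the downstream gene but within 2 Mb. There were 10 from SF3A2, of which 4 ended in OAZ1, 1 in NFIC and 5 in no gene, 7 from BSDC1, which ended in no gene, and 14 from UQCRQ, of which 1 each ended in HSPA4, SEC24A and UBE2B and 11 in no gene. LINC01033 and PPP2CA had 0. These genes are named after their counts were seen.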
